A study of Mus musculus with 4 samples.

Results

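The Hox genes of the 4 clusters were taken as every protein-coding gene in the count table whose mouse symbol begins with Hoxa, Hoxb, Hoxc or Hoxd followed by a number. This rule gave 39 of the 22298 listed genes, with 11 in cluster A, 10 in cluster B, 9 in cluster C and 9 in cluster D. RNA-seq had been performed on brown adipose tissue (BAT) of C57BL/6 mouse fetuses at E18.5, near the end of gestation. The dams of the control group drank tap water (0% fructose) and the dams of the fructose group drank water with 20% (w/v) fructose throughout pregnancy. Each group had 2 libraries. The labels give every fetus as male and name no transgene or deletion, and neither the number of fetuses or litters behind a library nor the body site of the dissected depot is stated in the sources used here. The p-values below therefore measure the spread between these libraries, which may be technical.

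Hox genes encode homeodomain transcription factors that give cells along the head-to-tail axis their regional identity. Within each cluster the genes stand in a fixed order, and genes at the same place in different clusters form a paralog group. Genes at the 3' end, which carry low numbers, are used up to the hindbrain and neck, whereas genes at the 5' end, which carry high numbers, are used in the lower trunk, the tail and the distal limb. Fibroblasts and fat precursors are known to keep the Hox pattern of the region in which they arose, so that the set of expressed paralog groups can be read as a map of position. The question here was which groups were expressed in this tissue, and whether their levels differed between fetuses of fructose-fed and control dams.

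The table held whole-number read counts per gene. Total counts ranged from 18542897 to 23645147 per library, and 3 counts, taken as the detection floor, equalled 0.122 to 0.166 CPM. CPM is the count scaled to a common library total after TMM scaling, a correction for differences in composition between libraries. Libraries of 1 group differed by more than counting noise, so each was kept as a separate sample. The 9 brown adipocyte markers summed to between 21260 and 24850 CPM in every library, with 1 called higher (Ppargc1a) and 1 lower (Adipoq) in fructose by the edgeR test described below. With trends of transcript length and GC content removed, 2 were called higher (Ppargc1a and Cidea) and 1 lower (Fabp4). Counts summed over the Y-linked genes Ddx3y, Eif2s3y, Uty and Kdm5d were 422 and 390 in the control libraries and 0 in both fructose libraries, which goes against the male label of the fructose libraries. Mitochondrially encoded genes took 5.89% and 6.49% of counts in control and 10.75% and 11.2% in fructose. Treatment, the Y-linked difference and the mitochondrial share cannot be told apart, and no fructose value can be given without the affected libraries.

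Few or no reads were counted from the genes at the 5' end of the clusters. RefSeq promoters matched 22 of the 39 genes. The promoters on either side of the border between counted and uncounted genes are shown because the genes they serve lie next to each other and yet were counted in all libraries in one case and in none in the other. Each sequence is the 250 bases before the RefSeq start site on GRCm38.p6, written 5' to 3' on the strand of the gene, with CG dinucleotides in capitals. In cluster A the border lay between Hoxa9 (chr6:52227371-52227620, minus strand) and Hoxa10 (chr6:52234940-52235189, minus strand), for which the start nearer to Hoxa9 was taken of the 2 that RefSeq lists. In cluster D it lay between Hoxd9 (chr2:74697513-74697762, plus strand) and Hoxd10 (chr2:74691641-74691890, plus strand).
Hoxa9, counted in all libraries: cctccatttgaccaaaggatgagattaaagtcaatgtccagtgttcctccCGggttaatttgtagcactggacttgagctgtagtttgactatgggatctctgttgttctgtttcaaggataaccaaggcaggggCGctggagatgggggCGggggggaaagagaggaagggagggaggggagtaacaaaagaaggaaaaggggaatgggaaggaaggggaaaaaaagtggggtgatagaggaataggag
Hoxa10, 0 counts in all libraries: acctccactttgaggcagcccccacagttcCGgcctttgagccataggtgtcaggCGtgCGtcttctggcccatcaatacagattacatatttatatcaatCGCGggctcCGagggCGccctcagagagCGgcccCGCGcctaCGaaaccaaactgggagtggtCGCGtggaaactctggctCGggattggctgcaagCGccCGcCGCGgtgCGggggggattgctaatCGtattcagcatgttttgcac
Hoxd9, counted in all libraries: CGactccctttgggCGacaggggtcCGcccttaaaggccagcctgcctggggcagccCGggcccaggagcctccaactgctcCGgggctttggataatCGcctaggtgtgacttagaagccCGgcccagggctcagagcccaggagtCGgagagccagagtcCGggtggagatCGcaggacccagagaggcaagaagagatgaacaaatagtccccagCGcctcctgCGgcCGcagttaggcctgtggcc
Hoxd10, 0 counts in all libraries: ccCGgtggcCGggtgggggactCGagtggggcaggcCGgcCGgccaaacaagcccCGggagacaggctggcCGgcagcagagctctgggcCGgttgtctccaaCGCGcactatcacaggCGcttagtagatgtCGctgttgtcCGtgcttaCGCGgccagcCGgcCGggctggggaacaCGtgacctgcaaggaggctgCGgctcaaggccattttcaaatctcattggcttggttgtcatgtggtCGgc
The Hoxa9 window held 3 CG dinucleotides and the Hoxa10 window 20, while the window of the other Hoxa10 start held 7. The Hoxd9 window held 13 and the Hoxd10 window 20. Over all listed Hox promoters the ranges overlapped, at 2 to 35 for genes at 0 counts and 3 to 28 for genes past the low-count filter described below. Hoxa5, with 28, was past that filter. CG-rich start sites are known as places where Polycomb complexes act on silent developmental genes, and no chromatin was measured here. A relation of CG content to the counts was not tested.

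Of the 39 Hox genes, 22 passed the filter on low counts (edgeR's filterByExpr), 6 had between 1 and 26 counts over all 4 libraries together, and 11 had 0 counts in every library. The 11 genes at 0 were Hoxa10, Hoxa11, Hoxa13, Hoxb1, Hoxc11, Hoxc12, Hoxc13, Hoxd10, Hoxd11, Hoxd12 and Hoxd13. All of these but Hoxb1, a gene of the embryonic hindbrain, belong to paralog groups 10 to 13. A count of 0 allows a level of up to 0.158 and 0.166 CPM in the control libraries and 0.133 and 0.122 CPM in the fructose libraries, for counting error only. The 6 sparse genes were Hoxa6, Hoxb13, Hoxc9, Hoxc10, Hoxd1 and Hoxd3. Of these, Hoxa6, Hoxb13 and Hoxd3 exceeded 3 counts in at least 1 library, and differences between groups in the 6 were not detectable at this depth.

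To compare genes with each other, levels were divided by the length of the annotated exons and written as CPM per kb. Paralog groups 4 to 8, which are used in the neck and chest, held 82.3% ± 1.70 (SD, n = 2) of the summed Hox level in control and 79.9% ± 1.88 (SD, n = 2) in fructose. Groups 1 to 3, used in the hindbrain and upper neck, held 15.0% ± 1.08 (SD, n = 2) in control and 17.5% ± 1.23 (SD, n = 2) in fructose. Groups 9 to 13 held 2.69% ± 0.62 (SD, n = 2) and 2.63% ± 0.65 (SD, n = 2). The share of groups 4 to 8 in the single libraries was 81.1% and 83.5% in control and 81.2% and 78.6% in fructose, so that the groups overlapped. The share of groups 1 to 3 was 15.8% and 14.3% in control and 16.6% and 18.3% in fructose, with no overlap. Their summed level was not higher in fructose, at 12.2 and 12.0 CPM per kb in control and 11.4 and 11.8 CPM per kb in fructose. The higher share thus went with a lower total Hox level. With 2 libraries against 2, the smallest two-sided p that an exact permutation test can give is 0.33, and no test of these shares was made.

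**Figure D1:**
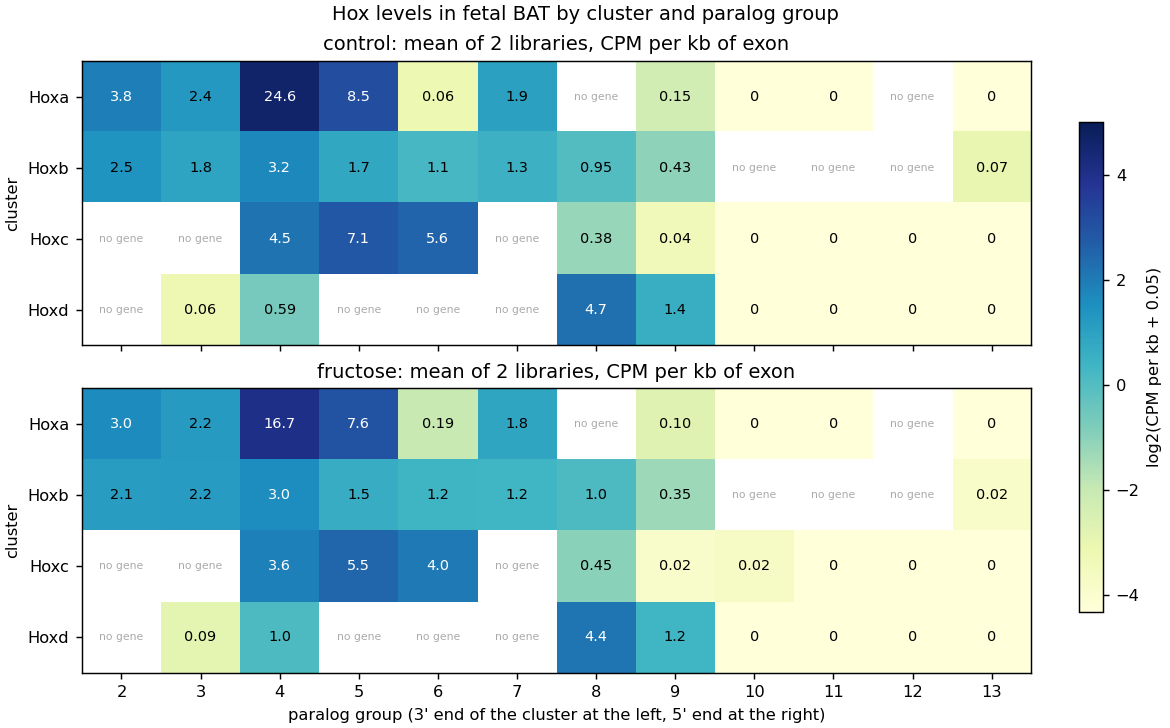
Mean level of each Hox gene (CPM per kb of exon, number in each square, and colour on a log2 scale) by cluster (rows) and paralog group (columns) in the 2 control libraries (top) and the 2 fructose libraries (bottom). Group 1 is not shown. In both panels the filled squares run up to group 9, with gaps such as Hoxa6 (0.06 in control and 0.19 in fructose). Hoxa4 is the darkest at 24.6 in control and 16.7 in fructose, and groups 10 to 13 are at or near 0.

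Group 4 alone held 40.8% of the summed level in control, and group 5 held 21.4%. Group 6 followed with 8.48%, group 2 with 7.85%, group 8 with 7.59%, group 3 with 5.28%, group 7 with 4.06% and group 9 with 2.60%. The order of these smaller shares depends on the length used. Hoxa3 of group 3 had 14.6 and 13.8 CPM in control. Its annotated exons of 6014 bases exceed its longest transcript of 2591 bases, by which its level per kb would be higher. Groups 10, 11 and 12 were at 0 in control. The 0.0908% of group 13 came from Hoxb13 alone. By cluster, cluster A held 53.3% ± 1.14 (SD, n = 2) of the level in control, cluster C 21.8% ± 2.88, cluster B 16.4% ± 2.30 and cluster D 8.57% ± 1.72. Cluster B had the broadest coverage, with 8 of 10 genes past the filter, against 7 of 11 in cluster A, 4 of 9 in cluster C and 3 of 9 in cluster D.

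**Figure D2:**
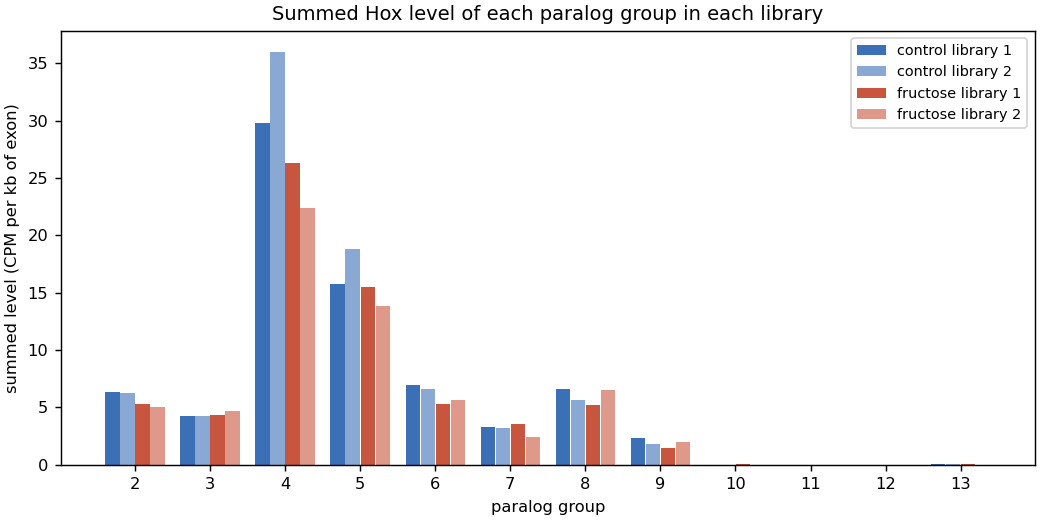
Summed Hox level (CPM per kb of exon) of paralog groups 2 to 13 in each library, with 1 bar per library. Group 4 stands above all others in each library, with control bars at 29.8 and 36.0 beside fructose bars at 26.3 and 22.4. Groups 10 to 13 hold almost no signal.

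Hoxa4, a group 4 gene with roles in the neck vertebrae and lung, had the highest level of all Hox genes in each library. Its level was 22.4 and 26.8 CPM per kb in control and 18.6 and 14.8 CPM per kb in fructose. The next gene in order, Hoxa5, reached at most 9.07 CPM per kb in any library. The order after Hoxa4 depends on the length used. Hoxc6 has 2408 exon bases and a longest transcript of 1581 bases, whereas both are 1877 for Hoxa5. Hoxa5, which is needed for the neck-to-chest transition of the spine and for the lung, had 8.01 and 9.07 CPM per kb in control and 7.70 and 7.55 CPM per kb in fructose. It overlapped in control with Hoxc5, the gene after it, at 5.79 and 8.35 CPM per kb. Hoxc6, used in the upper chest, followed with 5.28 and 5.99 CPM per kb in control, again overlapping with Hoxc5. Hoxd8, a group 8 gene of the trunk, had 5.13 and 4.36 CPM per kb in control. It had the highest level of cluster D in every library, above Hoxd9 at 1.80 and 1.09 CPM per kb and Hoxd4 at 0.555 and 0.621 CPM per kb in control.

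The front limit of expression differed between clusters. In cluster B the first gene counted was Hoxb2, a gene of the hindbrain and cranial nerves, with 181 and 148 counts in control and 176 and 172 in fructose, while Hoxb1 next to it was at 0 in every library. Cluster C has no gene of groups 1 to 3, and its first gene Hoxc4 had 177 and 248 counts in control and 231 and 205 in fructose. In cluster D, Hoxd1 had 1 count in 1 library and Hoxd3 had 3 and 6 counts in control and 7 and 10 in fructose, so that the first gene past the filter was Hoxd4. Hoxd4 shares 52.3% of its exon bases with neighbouring annotated genes, among them Hoxd3 and the read-through gene Gm28230, and reads cannot be assigned among them with certainty. Gm28230 had 9 and 3 counts in control and 26 and 10 in fructose.

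The rear limit lay at group 8 or 9 in each cluster. Hoxa9 had 17 and 14 counts in control and 12 and 14 in fructose, and Hoxa10 had none. Hoxb9 had 16 and 25 counts in control and 21 in each fructose library, and the next gene of the cluster, Hoxb13, had 2 and 4 counts in control and 1 in each fructose library. In cluster C, the last gene past the filter was Hoxc8 with 23 and 17 counts in control and 30 in each fructose library. Hoxc9, a known marker of white fat, had 3 and 1 counts in control and 0 and 2 in fructose. Hoxc10, a gene of the lower back and hindlimb, had 2 counts in 1 fructose library and 0 elsewhere. In cluster D, Hoxd9 had 73 and 42 counts in control and 47 and 79 in fructose, whereas the neighbouring Hoxd10 was at 0. Of the group 9 genes, Hoxd9 had the highest level per kb in every library, while Hoxa9 lay between 0.0951 and 0.161 CPM per kb. No gene of groups 10 to 13 passed the filter, and in fructose only Hoxc10 and Hoxb13 of these groups had any count.

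**Figure D3:**
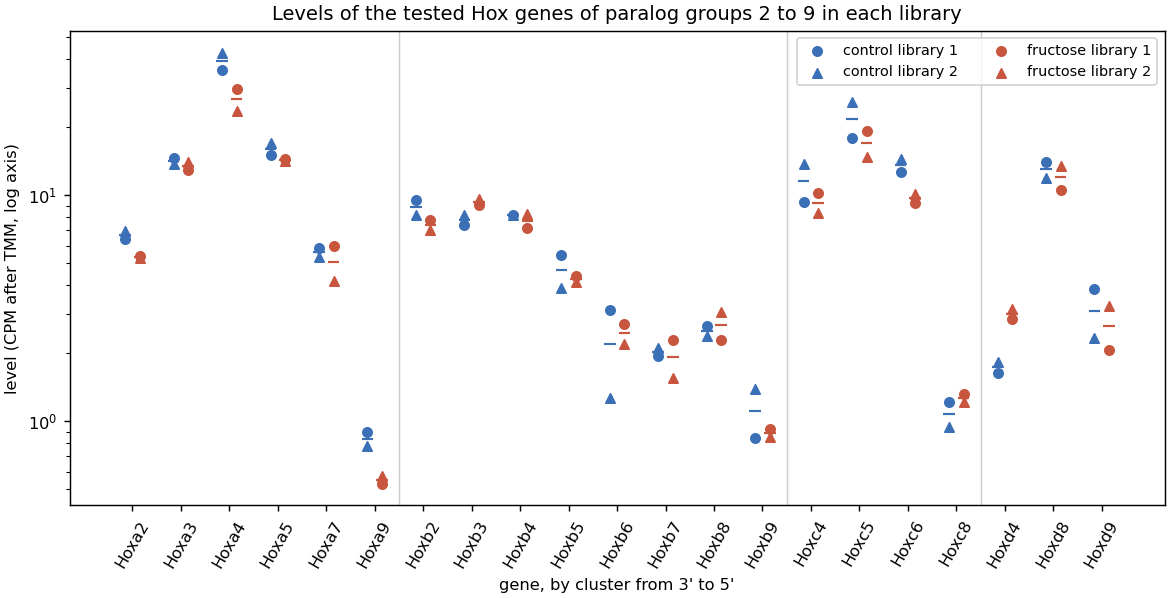
Level (CPM after TMM scaling, log axis) of the tested Hox genes of paralog groups 2 to 9 in each library, ordered by cluster from 3' to 5' (control blue, fructose red, circles for library 1 and triangles for library 2, dashes for the group mean). The fructose points of Hoxa4 and Hoxc6 lie under both control points, those of Hoxd4 lie over them, and most other genes overlap.

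In the comparison of fructose with control, 2 of the 22 tested Hox genes, Hoxa4 and Hoxc6, fell at an adjusted p under 0.05, and 0 rose (edgeR's quasi-likelihood test, two-sided, with Benjamini-Hochberg adjustment over all tested genes). Among all 12888 tested genes, 10.7% were called lower and 15.5% higher by the same rule, so that 2 of 22 is close to the background. Over all tested genes this was 1379 lower and 2001 higher, and 859 lower and 2242 higher with scaling by library size only, which called Hoxa4 alone of the Hox genes. At an unadjusted p under 0.05, 1 Hox gene (Hoxd4) was higher and 2 were lower, against 21.5% and 17.8% of all tested genes. DESeq2 called 0 Hox genes higher and 1 lower (Hoxa4), against 10.4% and 8.8% of the 12315 genes to which it gave an adjusted p. In bulk tissue, fewer cells of a type and less RNA per cell cannot be told apart.

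Hoxa4 (ENSMUSG00000000942, GRCm38 chr6:52189671-52191753, minus strand) stood at 35.7 and 42.8 CPM in control and 29.6 and 23.6 CPM in fructose. Both fructose libraries lay below both control libraries. Its log2 fold change was -0.56 (SE 0.13), or 1.47-fold lower, with an edgeR adjusted p of 0.00828. About 16.0% of its exon bases are also covered by an antisense gene, Gm29430, which is not in the table. When the trends with transcript length and GC content were removed, the log2 fold change of Hoxa4 was -0.23 (SE 0.12), with an edgeR adjusted p of 0.29. Without fructose replicate 2 it was -0.40, with an edgeR adjusted p of 0.0542.

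Hoxc6 (ENSMUSG00000001661, GRCm38 chr15:102998257-103011881, plus strand) stood at 12.7 and 14.4 CPM in control and 9.29 and 10.1 CPM in fructose. Again the groups did not overlap. The log2 fold change was -0.48 (SE 0.15), or 1.40-fold lower, with an edgeR adjusted p of 0.0317. No other annotated gene shares its exon bases. With both trends removed the log2 fold change of Hoxc6 was -0.22 (SE 0.14), with an edgeR adjusted p of 0.398. DESeq2 gave -0.50 with an adjusted p of 0.0911. The edgeR adjusted p of Hoxc6 was also above 0.05 without control replicate 2 (-0.39, 0.107), without fructose replicate 1 (-0.42, 0.169) and without fructose replicate 2 (-0.54, 0.0764).

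Hoxd4 (ENSMUSG00000101174, GRCm38 chr2:74711929-74729160, plus strand) had the highest fold change of the tested Hox genes. Its level was 1.64 and 1.83 CPM in control and 2.83 and 3.14 CPM in fructose, with no overlap between groups. The log2 fold change of 0.79 (SE 0.28) did not pass, with an edgeR adjusted p of 0.0584. With both trends removed it was 0.95 (SE 0.27) and passed, with an edgeR adjusted p of 0.049. The counts of this gene carry the uncertainty from shared exons given above.

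The other tested Hox genes did not pass, with the lowest log2 fold change at -0.60 (SE 0.46) for Hoxa9 and standard errors from 0.13 to 0.46 over all 22. Hoxc5, the group 5 gene of the same cluster as Hoxc6, had 17.9 and 25.8 CPM in control and 19.2 and 14.9 CPM in fructose, with overlap and a log2 fold change of -0.36 (SE 0.18). Without control replicate 1, edgeR called Hoxc5 (log2 fold change -0.60) and Hoxc4 (-0.57) lower, and without fructose replicate 1 it called Hoxc5 (-0.55) lower. Without control replicate 2 the log2 fold changes were -0.071 for Hoxc5 and -0.0093 for Hoxc4, and without fructose replicate 2 they were -0.18 and -0.17, with neither gene called. Hoxa5 had 15.0 and 17.0 CPM in control and 14.5 and 14.2 CPM in fructose, a log2 fold change of -0.16 (SE 0.13). Hoxa2, which patterns the second pharyngeal arch, had 6.39 and 6.99 CPM in control and 5.39 and 5.31 CPM in fructose, with no overlap and a log2 fold change of -0.32 (SE 0.18). Hoxa5 and Hoxa2 thus lay below both controls in each fructose library without passing the adjusted threshold.

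In cluster B, Hoxb2 had 9.55 and 8.21 CPM in control and 7.78 and 7.02 CPM in fructose, a log2 fold change of -0.26 (SE 0.17). Hoxb3 had 7.39 and 8.15 CPM in control and 9.11 and 9.63 CPM in fructose, a log2 fold change of 0.27 (SE 0.16). Hoxb4, known for its part in blood stem cells as well as in the neck, had 8.23 and 8.21 CPM in control and 7.16 and 8.25 CPM in fructose. These 3 neighbours thus pointed in different directions or overlapped, and edgeR called none of them. Hoxb3 shares 52.9% of its exon bases with the antisense gene Hoxb3os, and Hoxb2 shares 27.3% with it. The treatment of strand in the counting is not given in the sources used here. In cluster D, Hoxd8 had 14.1 and 12.0 CPM in control and 10.6 and 13.5 CPM in fructose, and its groups overlapped, as did those of Hoxd9 at 3.85 and 2.33 CPM against 2.08 and 3.23 CPM.

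**Figure D4:**
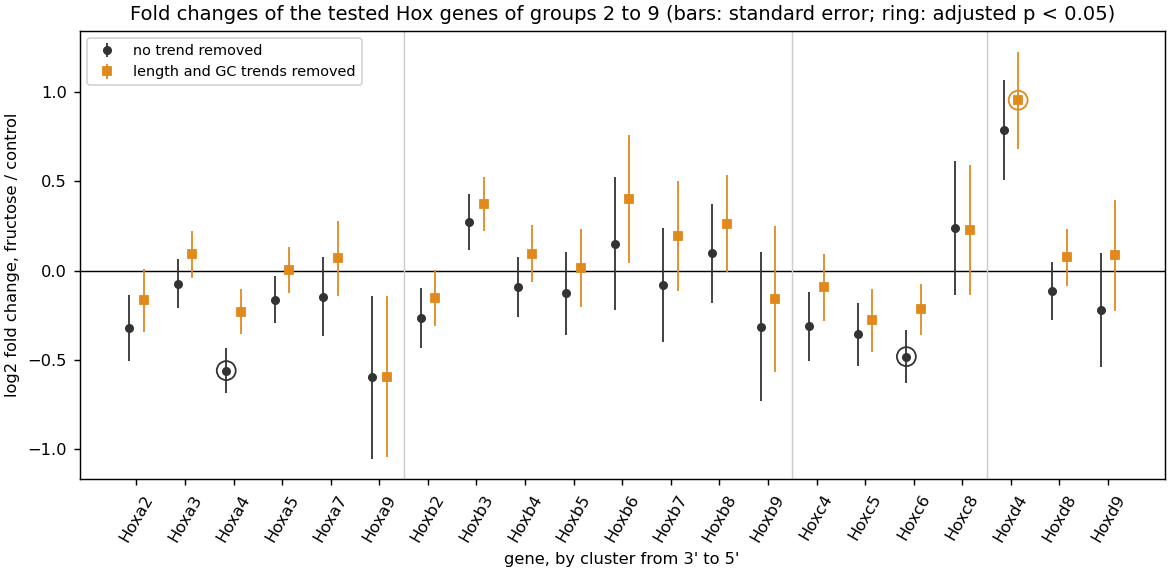
Log2 fold change (fructose against control) with its standard error for the tested Hox genes of paralog groups 2 to 9, as fitted (black) and with the length and GC trends removed (orange). Rings mark an adjusted p under 0.05 in edgeR's quasi-likelihood test, namely Hoxa4 and Hoxc6 as fitted and Hoxd4 with trends removed.

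Taken by direction, 16 of the 22 tested Hox genes (72.7%) had a log2 fold change below 0, against 49.7% of all tested genes, and their median was -0.14 against 0.0025. Both fructose libraries lay below both control libraries for 6 Hox genes (Hoxa2, Hoxa4, Hoxa5, Hoxa9, Hoxb2 and Hoxc6) and above them for 4, among them Hoxb3, Hoxc8 and Hoxd4, and 12 overlapped. Over all tested genes, 31.6% lay below and 33.4% above. In cluster A, 6 of 7 tested genes had a log2 fold change below 0, in cluster B 5 of 8, in cluster C 3 of 4 and in cluster D 2 of 3. With the thresholds of the study's methods, an unadjusted p under 0.05 and a fold above 1.3, 2 Hox genes were lower (Hoxa4 and Hoxc6) and 1 was higher (Hoxd4), against 6.18% and 17.6% of all tested genes.

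Fold changes in these libraries followed transcript length and GC content across all genes, with a Spearman rho of 0.501 with length and -0.501 with GC content, as a description over genes that share their libraries. The tested Hox genes had a median GC content of 53.4% against 50.0% for all tested genes, and a median longest transcript of 2406 bases against 3433 bases. Both features lie on the side where fold changes were lower. With both trends removed, the median log2 fold change of the tested Hox genes was 0.071 against -0.0096 for all tested genes. In that fit, edgeR called 1 Hox gene higher (Hoxd4) and 0 lower, against 3.91% of all tested genes higher and 4.98% lower. At an unadjusted p under 0.05 this fit gave 3 Hox genes higher and 0 lower, against 11.0% of all tested genes higher and 13.4% lower. The downward direction of the Hox genes was thus present in the fit without these corrections and not in the fit with both.

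**Figure D5:**
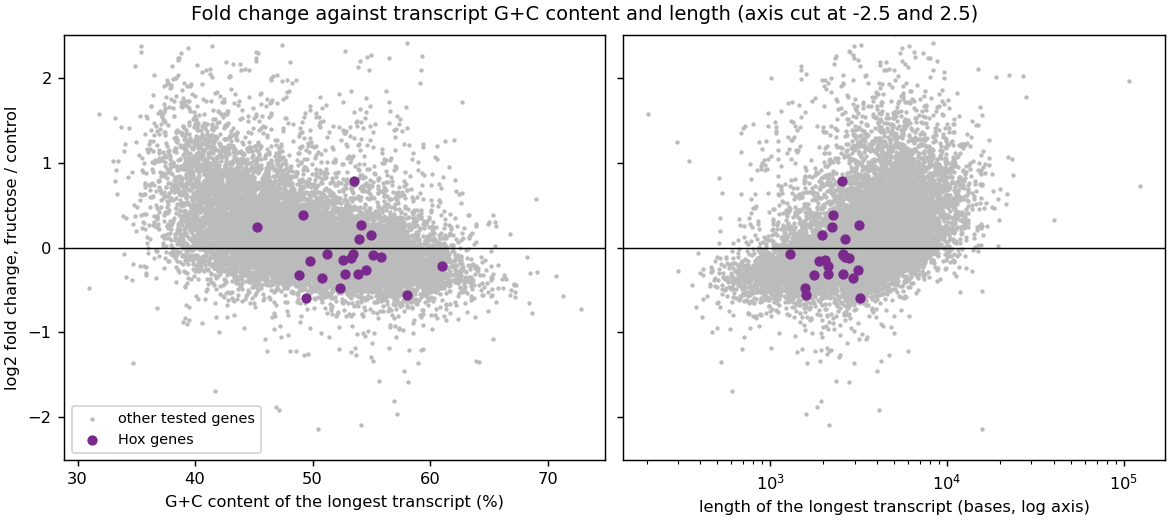
Log2 fold change (fructose against control) of each tested gene against the GC content (left, %) and the length (right, bases, log axis) of its longest transcript, with the 22 Hox genes in purple. Genes with higher GC content and shorter transcripts sit lower, and the Hox genes lie among them, at 45.3% to 61.0% GC and 1291 to 3226 bases.

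Summed over all 39 genes, the Hox level was 77.0 and 84.2 CPM per kb in control and 68.8 and 64.6 CPM per kb in fructose. The fructose libraries lay below both control libraries. The widest gap of any paralog group was that of group 4, at 29.8 and 36.0 CPM per kb in control against 26.3 and 22.4 CPM per kb in fructose. Most of this gap lay in Hoxa4, with means of 24.6 CPM per kb in control and 16.7 CPM per kb in fructose, the widest gap of any Hox gene. Of the other group 4 genes, Hoxb4 and Hoxc4 overlapped between groups and Hoxd4 was higher in both fructose libraries. Groups 2, 5 and 6 were also lower in both fructose libraries, groups 7, 8 and 9 overlapped, and group 3 was higher in both, at 4.21 and 4.28 CPM per kb in control against 4.36 and 4.70 CPM per kb in fructose. No p is given for these sums, and the length and GC trends were not removed from them. With both trends removed, edgeR did not call Hoxa4 (adjusted p of 0.29).

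Hox proteins bind DNA together with TALE homeodomain partners of the Pbx, Meis and Pknox families. Of the 9 TALE cofactor genes, 8 were tested and edgeR called 0 of them, with a median log2 fold change of 0.13 as fitted and -0.082 with trends removed. At an unadjusted p under 0.05, 2 were higher and 1 was lower, and DESeq2 called 0. Over all tested genes, edgeR called 15.5% higher and 10.7% lower. At an unadjusted p under 0.05 these shares were 21.5% and 17.8%. Pbx2 had the highest level per kb of the tested cofactors, at 54.6 and 52.4 CPM in control and 43.8 and 50.3 CPM in fructose. Meis2, used in the trunk and the proximal limb, had 5.49 and 5.71 CPM in control and 7.83 and 8.0 CPM in fructose. Its log2 fold change of 0.50 (SE 0.17) did not pass, with an edgeR adjusted p of 0.0532. With both trends removed the log2 fold change of Meis2 was 0.078, with an edgeR adjusted p of 0.829. The partners of Hox proteins were therefore expressed in all libraries, and no difference between the groups passed the test.

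Hox clusters are opened by retinoic acid and Cdx factors and kept on or off by trithorax and Polycomb proteins. Of 45 such regulators, 38 were tested, and edgeR called 7 higher and 5 lower, read beside 15.5% and 10.7% of all tested genes. The 7 higher genes were Kmt2a, Suz12, Rnf2, Bmi1, Kdm6a, Phc3 and Jarid2, with log2 fold changes from 0.48 for Jarid2 to 1.71 for Kdm6a. Kmt2a encodes a trithorax methyltransferase that maintains Hox expression, whereas Suz12, Rnf2, Bmi1, Phc3 and Jarid2 encode parts of Polycomb complexes that keep Hox genes silent. Kdm6a, which removes the Polycomb mark, is an X-linked gene that escapes X inactivation. Its level was higher in the libraries without Y-linked counts, at 3.17 and 3.33 CPM in control and 9.15 and 12.1 CPM in fructose. The part of the Y-linked difference in it was not tested. With both trends removed, 2 regulators were called higher (Kdm6a and Phc3) and 2 lower (Phc2 and Ash2l).

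The 5 lower regulators were Rxrg, Rxrb, Phc2, Pcgf2 and Ash2l, with log2 fold changes from -0.45 for Phc2 to -0.29 for Ash2l. Rxrg and Rxrb, partners of the retinoic acid receptors, and Phc2, of a Polycomb complex, had the highest level per kb among the called regulators. Rxrg stood at 71.8 and 72.5 CPM in control and 57.4 and 56.5 CPM in fructose, a log2 fold change of -0.34 (SE 0.081) with an edgeR adjusted p of 0.0105. Rxrb stood at 105.2 and 116.7 CPM in control and 88.7 and 86.2 CPM in fructose, a log2 fold change of -0.34 (SE 0.085) with an edgeR adjusted p of 0.0122. Phc2 stood at 119.5 and 131.7 CPM in control and 92.5 and 91.2 CPM in fructose, a log2 fold change of -0.45 (SE 0.083) with an edgeR adjusted p of 0.00307. None of these 3 overlapped between groups. With both trends removed, the log2 fold changes were -0.11 for Rxrg, -0.097 for Rxrb and -0.35 for Phc2. The edgeR adjusted p values in that fit were 0.467, 0.565 and 0.0306, so that only Phc2 of the 3 passed. Cdx2 and Cdx4, which drive the rear Hox genes in the embryo, and Cyp26a1 and Cyp26c1, which break down retinoic acid, had 0 counts in every library.

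A list of 32 positional transcription factors outside the clusters was measured as another reading of position. Of these, 15 were tested and edgeR called 0, with a median log2 fold change of 0.17, and DESeq2 called 0. At an unadjusted p under 0.05, 2 were higher and 2 lower. Over all tested genes, edgeR called 15.5% higher and 10.7% lower, or 21.5% and 17.8% at an unadjusted p under 0.05. Tcf15 and Meox1, factors of the somites, had the highest levels per kb of the tested genes, with Tcf15 at 11.4 and 12.9 CPM in control and 12.3 and 8.82 CPM in fructose. Tbx5, a factor of the forelimb and heart, was counted in all libraries at 6.17 and 6.54 CPM in control and 3.45 and 5.06 CPM in fructose, with an edgeR adjusted p of 0.0791. The hindlimb factors Tbx4 and Pitx1 were at or near the floor, with at most 4 counts of Tbx4 in any library and 1 count of Pitx1 in all. Barx1, Evx2, Hand2, Isl1, Pax3 and Uncx had 0 counts in every library. Evx2 lies at the 5' end of cluster D beside Hoxd13, which was at 0 as well.

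Markers of the other cell types that a fetal BAT sample could hold were measured in the same libraries. Of 10 skeletal muscle markers, 9 were tested and all 9 were called higher by edgeR, or 8 with both trends removed. The summed level of the muscle markers was 232.2 and 316.1 CPM in control and 744.2 and 551.8 CPM in fructose. Of 6 erythroid markers, 4 were called lower and 0 with both trends removed, with sums of 14490 and 11660 CPM in control and 8860 and 9132 CPM in fructose. Their part in the levels of Hoxa4, Hoxc6 and Hoxd4 was not tested. Neuron and spinal cord markers, a tissue with high Hox levels, summed to between 1.64 and 2.77 CPM in every library, and Chat, Elavl4 and Isl1 were among the markers at 0. Cartilage and bone markers summed to between 2.74 and 3.94 CPM, with Bglap, Matn1 and Matn3 at 0. Skin epidermis markers summed to between 4.25 and 8.61 CPM with Krt14 at 0, and thymus T cell markers to between 2.30 and 2.94 CPM. Most markers of these 4 lists were too low to be tested. Of the 1 of 10 neuron, 3 of 10 cartilage and bone, 3 of 7 skin and 2 of 7 thymus markers that were tested, edgeR called 0, with 0 at an unadjusted p under 0.05 and 0 by DESeq2. Fibroblast markers, which include genes of the connective tissue that carries Hox codes, summed to between 3429 and 4016 CPM, with 0 of 9 called (1 higher and 2 lower at an unadjusted p under 0.05). Endothelium markers (1020 to 1077 CPM) had 0 called, with 2 higher and 1 lower at an unadjusted p under 0.05, and Schwann cell markers (27.7 to 33.9 CPM) had 0 by either measure. DESeq2 called 0 in these 3 lists. With both trends removed, edgeR called 1 fibroblast marker (Dcn) and 1 endothelium marker (Emcn) lower. Macrophage markers (88.4 to 107.2 CPM) had 1 higher and 1 lower by edgeR, and 0 called by DESeq2 or with both trends removed. All these counts stand beside 15.5% of all tested genes called higher and 10.7% lower by edgeR. The shares were 21.5% and 17.8% at an unadjusted p under 0.05.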

How the data were processed

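BAT of E18.5 fetuses was measured by RNA-seq in 2 control and 2 fructose libraries, grouped by their labels. The submitters' processing notes and the study's methods name fastp, Bowtie2 2.0.0.5, TopHat2 2.0.0, StringTie 2.2.0 and Cuffmerge on mm10. The authors deposited raw read counts per gene, without normalization or pooling. The counting tool, its treatment of strand and of reads shared between genes, and the annotation release are not given in the sources used here, so overlapping genes and paralogs are uncertain, and the paralogous Hox coding exons share some sequence.

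Symbols, exon lengths, GC content and coordinates came from the GENCODE annotation of GRCm38, on which 43 of 22298 identifiers had no symbol. Promoter sequences came from RefSeq (GRCm38.p6). Within groups, the chi-square per degree of freedom of the counts over genes was 13.75 in control and 8.83 in fructose, which is above counting noise. This value cannot tell whether the libraries of a group came from separate fetuses. TMM factors ranged from 0.973 to 1.04.

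Genes kept by filterByExpr were tested with edgeR 4.0.16 (quasi-likelihood, no covariate, R 4.3.3), with Benjamini-Hochberg adjustment over all 12888 tested genes and a threshold of 0.05. The study's methods used DESeq2, which was an alternative here (version 1.42.0), beside other scalings and filters, a replicate block, removal of length and GC trends by lowess (span 0.3, as offsets) and leaving out each library. Without 1 library, edgeR assumes that the lone library of its group varies like the others. The scripts were tested on simulated data. The Hox genes, the cofactor, regulator, positional factor and marker lists and the tests were chosen with earlier results of these data known.

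The named Hox genes were those called, the 3 of highest level per kb in each cluster, and the first and last past the filter in each cluster with the gene beyond. From the lists, called genes were counted, and of the called genes of the cofactor, regulator and positional factor lists the 3 of highest level were given. Kdm6a, Pbx2, Meis2, Tcf15, Meox1, Tbx4, Tbx5, Pitx1 and the read-through gene were named after their values were seen. So were Pax7, Six2, Aldh1a2, Hoxa3, Hoxa6, Hoxc10 and Hoxd1. Protein sequences were not used here, and the separate values of some genes are not reported here.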

Additional observations from a re-analysis of the deposited data

How the results depend on the processing

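Depth limits the group 9 to 13 genes most, since 3 counts were taken as the floor and most of these genes had fewer. Hoxa4 and Hoxc6 were lower in all 16 settings, with log2 fold changes from -0.73 to -0.23 and from -0.57 to -0.22, and were called in 11 and 7 of them. Hoxd4 was higher in all 16 (0.70 to 0.95) and called in 4.

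The count of Hox genes called lower, 2 in the main test, was 1 with DESeq2 and with scaling by library size only, 0 with the length trend, the GC trend or both removed (also with the replicate block), and 0 to 4 with 1 library left out (4 without control replicate 1, 1 without control replicate 2, 0 without fructose replicate 2). The count called higher, 0 in the main test, was 1 (Hoxd4) with no filter on low counts, with the GC trend or both trends removed, with both removed and the replicate block, and with the study's thresholds. The median log2 fold change of the tested Hox genes was -0.078 with library size only, -0.011 without the length trend, -0.034 without the GC trend, 0.071 without both, 0.062 without both and with the block, and -0.17 to -0.086 with 1 library left out.

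The cofactor count, 0 in the main test, was 1 with library size only and with no filter (Meis2), and 0 to 1 with 1 library left out (among them Pknox2). The positional factor count, also 0, was 1 with library size only and with no filter (Tbx15), and 0 to 3 with 1 library left out (Tbx5, Nr2f2, Meox2 or Meox1). The regulator count of 12 was 6 without the GC trend, 4 without both trends and 6 without both and with the block. The share of groups 4 to 8 in control, 82.3%, was 79.6% with the longest transcript as length, 75.4% with no length scaling, 79.2% with unshared exon bases, and 81.1% to 83.5% with 1 control library.

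Uncalled Hox genes changed sign in some settings, and the cause was not tested. Hoxa5 was at 0.012 without the length trend, 0.0046 without both trends and 0.0061 with the block added. Hoxb4 was at 0.0047, 0.044, 0.093 and 0.088 without length, GC, both, and both with the block, and at 0.0082 without fructose replicate 1 (-0.20 to 0.0082 with 1 library left out). Hoxb9 was at 0.079 without control replicate 2 and at -0.64 without control replicate 1. Hoxd8 was at 0.035, 0.073 and 0.065 without GC, both, and both with the block, at 0.0039 without control replicate 1 and at 0.051 without fructose replicate 1 (-0.30 to 0.051 with 1 library left out). Hoxd9 was at 0.020, 0.085 and 0.084 in the same 3 fits, at 0.19 without control replicate 1 and at 0.062 without fructose replicate 1 (-0.57 to 0.19 with 1 library left out).

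The libraries share replicate numbers across groups, but the deviations of same-numbered libraries correlated at -0.027, so the numbers were not taken as pairs. With the replicate block, 2 Hox genes were lower, 0 were higher, the median was -0.14, and 2117 genes were called higher and 1441 lower over all tested genes, against 2001 and 1379 without it. DESeq2 called 1280 higher and 1084 lower. The counts were 1187 and 824 without the length trend, 1112 and 1042 without the GC trend, 504 and 642 without both, and 738 and 804 without both and with the block, and without fructose replicate 2 they were 1207 and 485.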

Other observations

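RefSeq listed 24 promoters for 22 of the 39 Hox genes. In the 250 bases before the start, their median GC content was 58.6% against 52.4% over all 32851 promoters of the same length, and the median number of CG dinucleotides was 12.5 against 6. The 10 promoters of Hox genes at 0 counts had a median of 16.5 CG dinucleotides, the 3 promoters of sparsely counted genes 24, and the 11 promoters of genes past the filter 8. The ranges overlapped, at 2 to 35, 12 to 24 and 3 to 28, and the listed genes are a part of the clusters, so no test was made.

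The letters AGGTCA, the half-site of retinoic acid receptors, occurred on either strand in 25.0% of the Hox promoters and in 14% of all promoters. A direct repeat of AGGTCA spaced by 2 or by 5 bases, the form that these receptors bind, occurred in 0 of the 24 Hox promoters and in 0.00913% of all promoters for each spacing. Such a repeat always holds the half-site as well. The letters TGATNNAT, a form that Hox proteins bind with their Pbx partners, occurred in 16.7% of the Hox promoters and in 7.68% of all. A match is a description of these letters in this window.

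Some genes of the positional factor and regulator lists were counted at low levels and not tested. Pax7, a positional factor also known from muscle stem cells, had 0 and 2 counts in control and 7 and 11 in fructose. Six2 had 4 and 2 counts in control and 7 and 2 in fructose. Aldh1a2, of the regulator list, which makes retinoic acid in the embryonic trunk, had 9 and 5 counts in control and 8 and 6 in fructose.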
